A study of Mus musculus with 2 samples.

Results

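The 5 miRNA probes described here, mmu-miR-3968, mmu-miR-5100, mmu-miR-6366, mmu-miR-6412 and mmu-miR-3963 (named without the mouse prefix from here on), were the brightest of the 1900 miRNA probes on both arrays of the series. They were chosen by their spot medians on these arrays, so their levels, ranks and shares are a description and carry no test. B16 cells, a pigmented mouse melanoma line kept in medium with 5% serum, were transfected with a control siRNA or with an siRNA against Fam222B by a lipid reagent after 24 h of preincubation. Total RNA was taken 48 h later, labelled with Cy5 and hybridised to 3D-Gene miRNA arrays, with 1 array per group. No value has a replicate error, no test between the groups was possible, and precision is limited by how few arrays there are. Both groups went through transfection, and untransfected cells were not analysed here. The Fam222B mRNA is not measured by these probes, so the knockdown was not checked.

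miRNAs are RNAs of about the length of an siRNA that are cut from hairpin precursors and loaded into Argonaute proteins, where the seed, bases 2 to 8, chooses target mRNAs. They are numbered in the order of their discovery. High numbers come mostly from deep sequencing, and some such entries have been questioned as pieces of tRNA, rRNA or other abundant small RNAs, which are present in the same total RNA. A hybridisation probe reads any labelled RNA that pairs with it. Spot brightness also depends on how well a probe binds and on how well its target takes up label. A bright spot is therefore not a count of molecules, and levels of different miRNAs cannot be ranked from it.

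The mature sequences of all 5 are shown because the next paragraphs describe how much they resemble one another. They are RefSeq sequences on build GRCm38.p6, written from the 5′ end with the seed in capitals.
miR-3968: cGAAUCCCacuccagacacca
miR-5100: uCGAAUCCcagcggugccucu
miR-6366: aGCUAAGGggcccggggagcca
miR-6412: uCGAAACCauccucagcuacua
miR-3963: uGUAUCCCacuucugacac
miR-3968 lies at chr11:115447969-115447989 on the minus strand, inside the annotated extent of Trim80, and miR-5100 at chr11:60728698-60728718 on the plus strand, inside that of Mief2. miR-6412 lies at chr10:122648412-122648433 on the plus strand, within the lncRNA gene Gm36284. miR-6366, at chr16:18165093-18165114, and miR-3963, at chr3:151023839-151023857, both on the minus strand, overlap no other annotated gene. The annotation used gives gene extents without exons, so exonic and intronic positions were not assigned. None of the 5 lies in an annotated tRNA or rRNA gene, and the nearest such gene, the tRNA gene n-TRtcg4, is 34118 bases from miR-3968.

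The 5 seeds differ, and no other of the 1614 array miRNAs with a RefSeq sequence has any of them. miR-3968 and miR-5100 nevertheless share a run of 9 bases near the 5′ end, which takes in the whole seed of each. Their seeds thus overlap at a shifted position. miR-3968 and miR-3963 share 8 bases in a row and have the same base at 15 of 19 positions when laid side by side without gaps (78.9%). The capitals below mark these shared runs, first for miR-3968 with miR-5100 and then for miR-3968 with miR-3963.
miR-3968: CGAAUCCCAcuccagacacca
miR-5100: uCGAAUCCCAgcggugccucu
miR-3968: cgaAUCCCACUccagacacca
miR-3963: uguAUCCCACUucugacac
miR-6412 starts with the same UCGAA as miR-5100. It has the same base as miR-3968 at 13 of 21 positions (61.9%), although their longest shared run is 4 bases. These identities are the highest over the ungapped shifts tried for each pair, and miR-3968 with miR-5100 reached 12 of 20 (60%). Identity by position was not computed against other array miRNAs. miR-6366 shares no more than 5 bases in a row with any of the others. Each of the 5 was also set against the 1609 other array miRNAs of known sequence. None of these shares 12 or more bases in a row with a member. Runs of 8 or more, the length shared by miR-3968 and miR-3963, are not particular to the members. Of the 1609, 8 share such a run with miR-3968, 7 with miR-6366, 3 with miR-6412, and 2 each with miR-5100 and miR-3963. The longest such run, of 10 bases, joins miR-6366 with miR-3547-5p, whose spot gave 137 net units under control siRNA and 122 under Fam222B siRNA.

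Part of the shared run is also found in tRNAs, whose T arm carries the B box of the gene, with the letters UUCGANNCC in most tRNAs, and which end in CCA after processing. These letters were chosen with the sequences of the members partly known, and were searched on the sense strand only. UUCGANNCC is in 1 of the 1614 mature miRNAs (0.0620%), miR-1195, which ranked 8 in brightness by the lower of its signals. CGAAUCCC is in 2 of them (0.124%), miR-3968 and miR-5100. UCGANUCC, which overlaps CGAAUCCC in miR-5100, is in that miRNA and in miR-434-3p (0.124%). miR-434-3p, the product of an imprinted cluster, gave 2.94 and 1.37 net units on the control-siRNA and Fam222B-siRNA arrays, near the blank spots on both.

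The 6 letters AUCCCA are the longest run shared by miR-5100 and miR-3963, and lie within the runs each shares with miR-3968. Their presence in these 3 was thus fixed in advance, and they are not among the tRNA letters above. They are in 7 of the 1614 (0.434%), and 3 of these are miR-3968, miR-5100 and miR-3963. The 4 others are miR-7679-3p, at 103 net units under control siRNA and 110 under Fam222B siRNA, miR-191-5p at 69.6 and 56.2, miR-6963-3p at 8.20 and 5.32, and miR-7656-3p at 6.27 and 1.86. The median over the 7 was 103 net units under control siRNA and 110 under Fam222B siRNA, with 6 of the 7 detected on both arrays, and 3 of the 7 are members chosen for their brightness. An end in CCA occurs in 22 of the 1614 (1.36%), miR-3968 and miR-6366 among them, and the median over these 22 was 5.49 net units under control siRNA and 5.06 under Fam222B siRNA. Whether tRNA pieces bind these probes was not tested. No tRNA sequence was used here, and a match of letters is a description only.

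The precursors of miR-3968 and miR-5100, the probes with the 2 highest signals, are shown with the mature miRNA in capitals.
miR-3968 hairpin: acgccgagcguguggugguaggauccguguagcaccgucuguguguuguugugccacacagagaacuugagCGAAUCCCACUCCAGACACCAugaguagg
miR-5100 hairpin: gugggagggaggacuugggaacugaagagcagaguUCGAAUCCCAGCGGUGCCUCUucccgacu
In the miR-5100 precursor the base before the mature miRNA completes the letters UUCGANNCC, which occur in 3 of the 953 hairpins searched (0.315%). Both mature sequences lie on the 3′ side of the hairpin, at positions 72 to 92 of 100 and 36 to 56 of 64. miR-6366 also lies on the 3′ side, at 57 to 78 of 82, while miR-3963 lies on the 5′ side, at 6 to 24 of 71. A predicted fold was made for each hairpin. The mature miR-3968 had 61.9% of its bases paired, miR-6366 68.2%, miR-3963 73.7% and miR-5100 76.2%, against a median of 81.0% over 1519 array miRNAs. miR-3968 thus stood low in pairing, with 2.83% of the 1519 less paired than it. Its predicted energy per base, -0.289 kcal/mol, was weaker than the median of -0.413, as was that of miR-3963 (-0.317) and miR-5100 (-0.388), while that of miR-6366 (-0.459) was stronger. The hairpin of miR-6412 was not used here.

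The 5 were mixed in base composition. Their GC contents were 57.1% for miR-3968, 61.9% for miR-5100, 72.7% for miR-6366, 45.5% for miR-6412 and 47.4% for miR-3963, around the median of 52.2% over the 1614. miR-6412 and miR-3963 lay below that median. Of the 218 array miRNAs with at least 65% GC, 23 (10.6%) reached 100 net units on each array, against 62 (4.44%) of the 1396 with less GC. Across detected miRNAs GC content and net signal had a Spearman's rho of 0.224 under control siRNA (1040 probes) and 0.128 under Fam222B siRNA (815 probes). These probes share an array, a labelling and a hybridisation, so these are descriptions.

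The net signal is the spot median in the Cy5 channel minus the mean of the array's 896 blank spots, which was 70.3 units (SD 1.54) on the control-siRNA array and 69.9 units (SD 1.66) on the Fam222B-siRNA array. A miRNA was detected above the trimmed blank mean plus 2 SD, which 1220 probes (64.2%) passed under control siRNA and 959 (50.5%) under Fam222B siRNA. The median net signals of detected probes were 7.34 and 9.34 units. The melanocyte marker miR-211-5p gave 264 and 326 net units and miR-204-5p 36.3 and 30.2, whereas the liver marker miR-122-5p was below detection on both arrays. Of the other 14 markers listed for muscle, blood, neuron, epithelium and fibroblast, only miR-9-5p and miR-143-3p passed 100 net units. The melanocyte marker miR-204-5p did not reach that level either. The fibroblast marker miR-145a-5p, at 54.0 and 42.9 net units, was brighter than miR-204-5p on both arrays. All of the 14 but miR-142a-3p were detected under control siRNA. Those detected on both arrays were miR-145a-5p, miR-9-5p, miR-451a, miR-199a-5p, miR-133a-3p and miR-143-3p. In a bulk sample fewer cells with an RNA and less of it per cell cannot be told apart.

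**Figure D1:**
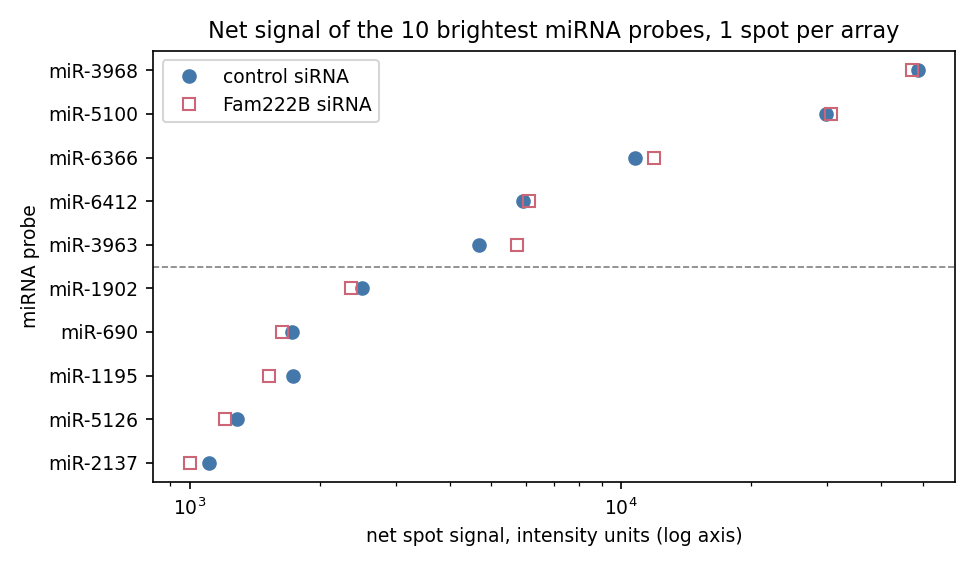
Net spot signal in intensity units (horizontal log axis) of the 10 brightest miRNA probes, ordered by the lower of their 2 signals, with filled circles for control siRNA and open squares for Fam222B siRNA, 1 spot per array. The dashed line separates the 5 probes described from the next 5, and the gap at the line runs from 4680 net units for miR-3963 to 2512 for miR-1902 in control-siRNA cells.

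miR-3968 gave 48795 net units under control siRNA and 47178 under Fam222B siRNA. It was the brightest of all 3200 spots on each array, controls included, and it was the only one of the 5 with the lower signal in Fam222B-siRNA cells before scaling. miR-5100 gave 29766 and 30592 net units and was next on both arrays, slightly higher in Fam222B-siRNA cells. miR-6366 gave 10769 and 11923 net units, higher in Fam222B-siRNA cells, and stood above every spot of the spike controls.

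miR-6412 gave 5921 net units under control siRNA and 6122 under Fam222B siRNA. miR-3963, the last inside the choice, gave 4680 and 5732 and had the widest gap between the arrays relative to its level. Just outside was miR-1902, at 2512 and 2363 net units. It was followed by miR-690 at 1730 and 1640, miR-1195 at 1731 and 1526, miR-5126 at 1288 and 1205, and miR-2137 at 1108 and 1000 net units. All 5 of these were lower in Fam222B-siRNA cells before scaling, whereas 4 of the 5 members were higher. For comparison of scale only, let-7a-5p, a miRNA found in most cells, gave 954 and 1023 net units, miR-16-5p 760 and 741, and miR-21a-5p, often raised in tumours, 313 and 319.

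All net miRNA signal, with negative values set to 0, summed to 150740 units on the control-siRNA array and 150250 on the Fam222B-siRNA array. The 5 probes held 66.3% of it under control siRNA and 67.6% under Fam222B siRNA, with within-array spot SDs of 1.32 and 1.36 percentage points. These SDs treat the errors of the 5 shares as independent, which shares of the same total are not. The gap of 1.29 points was therefore not judged against them. The other 1895 probes shared 33.7% and 32.4%. The brightness is thus that of a few spots on both arrays, and 2 probes were enough to reach 50% of the signal, while 16 and 14 were needed for 75% and 103 and 87 for 90%.

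miR-3968 alone held 32.4% under control siRNA and 31.4% under Fam222B siRNA. miR-5100 held 19.7% and 20.4%, and miR-6366 held 7.14% and 7.94%. miR-6412 and miR-3963 were close to each other, at 3.93% and 4.07% for the former and 3.10% and 3.82% for the latter. The share of miR-3963 was 1.23 times as large in Fam222B-siRNA cells, and that of miR-6366 1.11 times, against 0.970 to 1.04 times for the other 3. The next 5 probes together held 5.55% and 5.15%. With the files' own background column subtracted, the share of miR-3968 was 18.7% and 42.3%, that of miR-5100 26.8% and 15.1%, that of miR-6366 10.2% and 4.37%, that of miR-6412 1.56% and 0.801%, and that of miR-3963 4.82% and 4.91%. miR-5100 then stood above miR-3968 under control siRNA, and miR-3963 above miR-6412 on both arrays. With normexp, a model-based background correction with an offset added to every probe, miR-3968 held 19.4% and 18.7% and miR-5100 11.8% and 12.2%.

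**Figure D2:**
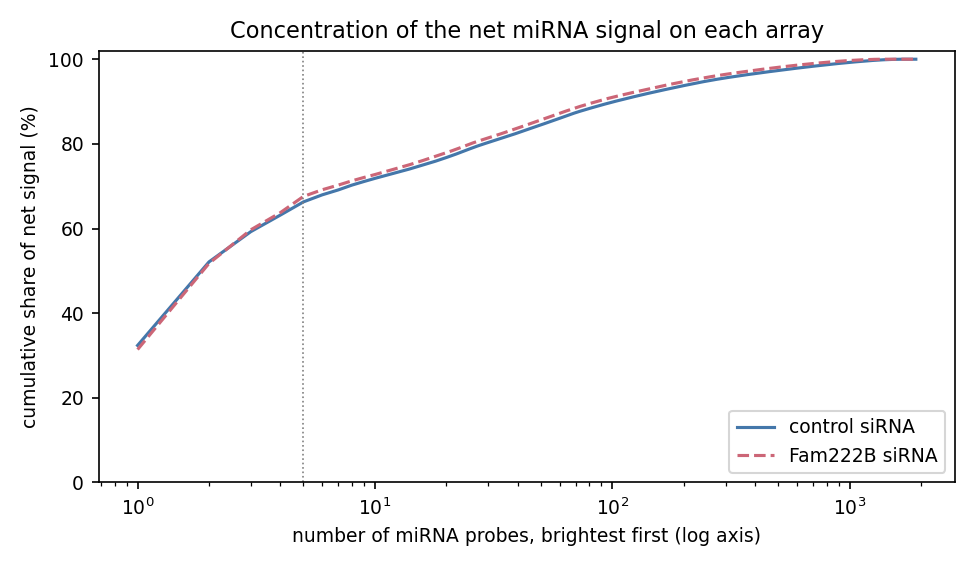
Cumulative share of net miRNA signal in percent (vertical axis) against the number of miRNA probes taken from the brightest down (horizontal log axis), as a solid line for control siRNA and a dashed line for Fam222B siRNA. The dotted line marks 5 probes, where the curves stand at 66.3% and 67.6%.

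Without the 5, the 834 probes of let-7 and of miR numbers under 1000 held 18% and 17.7% of the signal, the 126 probes numbered from 1000 to below 3000 held 5.03% and 4.74%, and the 935 numbered 3000 and over held 10.7% and 9.94%. All 5 members belong to the last class, which reached 77.0% and 77.5% with them. A comparison group of 4 GC-rich miRNAs, miR-709, miR-762, miR-2861 and miR-3960, together held 1.08% and 1.04%. This group leaves out miR-5126 (100% GC) and miR-2137 (85.7% GC), which were brighter than each of the 4. The 200 probes for 5p arms of miR-6896 to miR-7093 held 3.54% and 3.18%, and the 200 for the 3p arms 1.25% and 1.08%. miR-3968 and miR-5100 together held 52.1% and 51.8%.

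The probes most alike in signal were sought as those nearest in log2 net signal over the 2 arrays. miR-6412 and miR-3963 were nearest to each other, at a distance of 0.352. miR-3968 had miR-5100 as its nearest, at 0.948, and miR-6366 had miR-6412, at 1.29. The nearest probe that is not a member was miR-1902, at 1.56 from miR-3963 and 1.85 from miR-6412. With 2 arrays this likeness is one of level alone.

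The scanner files give 3 flags per spot, 1 for each scan gain, and all 30 flags of the 5 member spots read OK. On each array 1 miRNA spot had a bad flag, and neither was a member. The file headers show that scans at 3 gains were joined by straight lines. On the control-siRNA array 2 of the 3200 spots, miR-3968 and miR-5100, are listed as whole numbers, and on the Fam222B-siRNA array 3 are, with miR-6366 added. All other spots carry decimals, up to 10840 units for miR-6366 on the control-siRNA array. miR-6366 is thus the single spot whose value has a different form on the 2 arrays, at 10840 units with decimals and 11993 as a whole number. Which scan each value came from is not given in the sources used here, and the part of this change of form in the difference of miR-6366 was not tested. The files hold no column for saturation.

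All 5 were printed in row 4 of their blocks, in blocks 22, 2, 9, 23 and 6. That row held 320 miRNA probes with a median of 3.38 net units under control siRNA and 2.38 under Fam222B siRNA. The row as a whole was thus dim, as every row was. Row medians ran from 1.06 to 7.39 net units under control siRNA and from 0.506 to 5.17 under Fam222B siRNA. The miRNA spots touching the members ranged from near the blank spots to 77.3 net units under control siRNA and 74.5 under Fam222B siRNA. Around miR-5100 they ran from -1.08 to 6.52 net units under control siRNA and from -1.52 to 3.50 under Fam222B siRNA. Around miR-6366 their medians were 1.21 and 2.50 units, and those of the other miRNA probes of the block 2.89 and 2.50. Beside miR-3968 stood miR-138-2-3p, at 47.1 and 50.2 net units, and miR-5131 at 36.3 and 25.5. Its other 3 miRNA neighbours lay between -1.49 and 1.12, and a spot of Spike Control 2 at its corner gave 8893 and 7404 net units. Around miR-6412 only let-7k, at 54.5 and 64.2, exceeded 10 units. Around miR-3963 the medians of the miRNA spots were 8.42 and 5.64 units, above those of the rest of its block at 5.20 and 3.19, and included miR-3102-5p.2-5p at 77.3 and 74.5 and miR-6914-5p at 64.5 and 52.9. A spot of Spike Control 2 directly beside miR-3963 gave 9063 and 7860 net units. Both of these spike spots were lower in Fam222B-siRNA cells.

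The column headed BG_Median was large beside these spots. For miR-3968 it read 33240 units under control siRNA and 15215 under Fam222B siRNA, which is 68.0% and 32.2% of the spot itself. For miR-5100 it read 7393 and 19218, or 24.8% and 62.7%. The column thus fell steeply beside miR-3968 and rose steeply beside miR-5100. For miR-6366 it stood at 21.4% and 72.4% of the spot, for miR-6412 at 78.2% and 90.2%, and for miR-3963 at 15.1% and 35.9%. It rose in 4 of the 5 and fell in miR-3968, while the spots themselves moved by far less. Among miRNA spots no dimmer than 100 net units the column followed spot brightness, with a Spearman's rho of 0.791 under control siRNA (97 spots) and 0.897 under Fam222B siRNA (96 spots). The values given here subtract the blank mean and not this column, as the rule that chose the 5 probes had fixed.

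**Figure D3:**
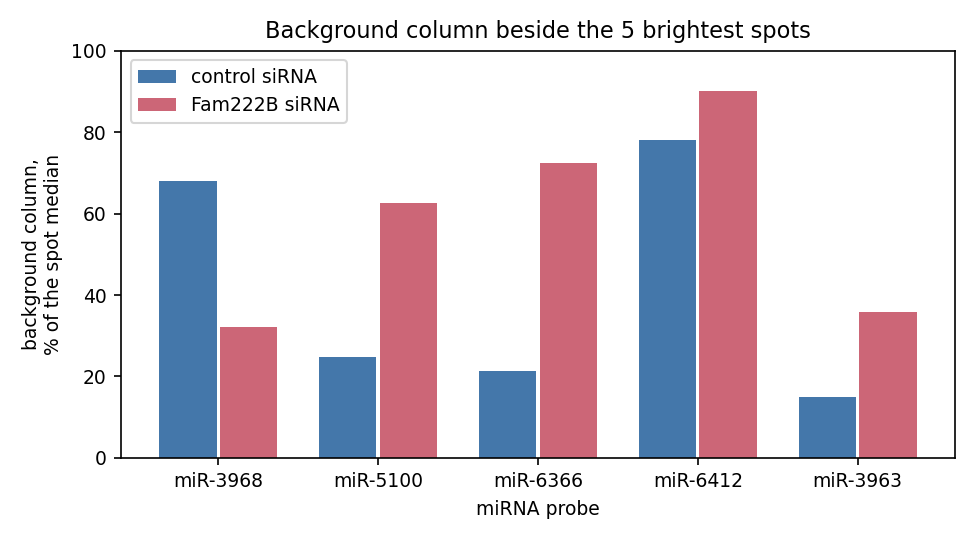
Background column as a percent of the spot median (vertical axis from 0) for each of the 5 probes, with 1 bar per array. The bar is higher for Fam222B siRNA in 4 probes and lower in miR-3968, where it stands at 32.2% against 68.0%.

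The comparison asked whether the 5 probes differed between the Fam222B knockdown and its control. Differences are log2 of net signal in Fam222B-siRNA over control-siRNA cells after the median over the 911 miRNA probes detected on both arrays was set to 0, which added 0.12 to each. On this scale miR-3968 differed by 0.071, miR-5100 by 0.16, miR-6412 by 0.17, miR-6366 by 0.27 and miR-3963 by 0.41, each with a within-array spot SD of 0.096. All 5 were thus on the side of higher signal in Fam222B-siRNA cells. So was the median of the other probes of at least 100 net units on each array, at 0.14. miR-3963 stood 1.33-fold and miR-6366 1.20-fold higher. No member reached 2-fold. Over the 911 probes 5.49% were past 2-fold in either direction, 2.96% higher and 2.52% lower. Among the 96 probes of at least 100 net units on each array the differences ran from -0.20 to 0.43, so none was past 2-fold. The spot SD combines the spread of 5 bright control probes, each with 8 spots per array, with that of the blank spots. Mean net signals of these controls ran from 255 to 8679 units under control siRNA and from 225 to 7620 under Fam222B siRNA. miR-3968, miR-5100 and miR-6366 were brighter, so the spot SD was not measured at their level. It holds no difference between cultures, labellings or hybridisations.

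miR-6366 and miR-3963 were higher by more than 2 spot SD, which makes 2 of 5. Over all 911 probes 7.79% were higher by this measure and 1.87% lower. Among the 96 probes that reached 100 net units on each array 27.1% were higher and 2.08% lower, since bright probes in general lay above 0 here. Their median without the members was 0.14. From the highest difference down, miR-3963 ranked 3 of the 96, miR-6366 16, miR-6412 36, miR-5100 38 and miR-3968 62. Against that bright median the values became 0.28 for miR-3963, 0.13 for miR-6366, 0.032 for miR-6412, 0.023 for miR-5100 and -0.065 for miR-3968. Of the 5, only miR-3963 then stood past 2 spot SD, where 6.25% of the 96 were higher and 8.33% lower.

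**Figure D4:**
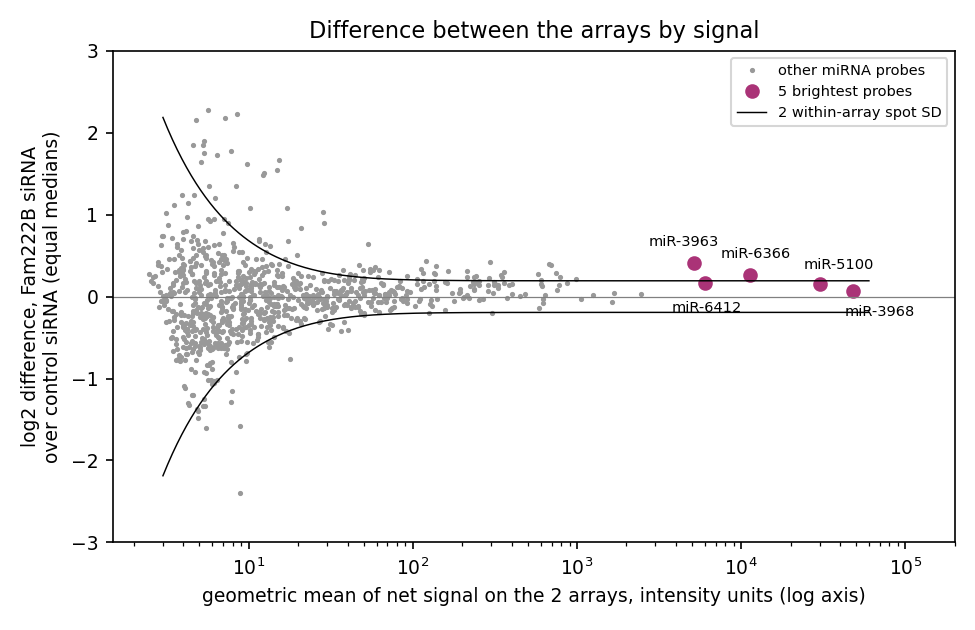
Log2 difference between the arrays on the equal-median scale (vertical axis) against the geometric mean of net signal in intensity units (horizontal log axis) for the 911 miRNA probes detected on both arrays, with the 5 brightest as large points. The lines mark 2 within-array spot SD for a probe equal on both arrays, and miR-3963 (0.41) and miR-6366 (0.27) lie above the upper line.

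The direction of miR-3968 depended on the scale, and those of the other 4 were above 0 under every scaling but quantile normalization. Before scaling miR-3968 was at -0.049, miR-5100 at 0.040, miR-6412 at 0.048, miR-6366 at 0.15 and miR-3963 at 0.29. The 5 bright control probes were all lower on the Fam222B-siRNA array, by -0.14 to -0.22 before scaling. Scaled to these controls, miR-3963 was at 0.47 and miR-3968 at 0.13. Quantile normalization gave 0 to all 5, because each kept its rank and that method then assigns the same value. With the background column subtracted, miR-3968 was at 0.94 and miR-5100, miR-6366, miR-6412 and miR-3963 were at -1.06, -1.46, -1.20 and -0.21, following the shifts of that column given above. In the authors' deposited table, whose values are a straight line in the spot median, miR-3963 was listed at 15907 under control siRNA and 21173 under Fam222B siRNA.

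**Figure D5:**
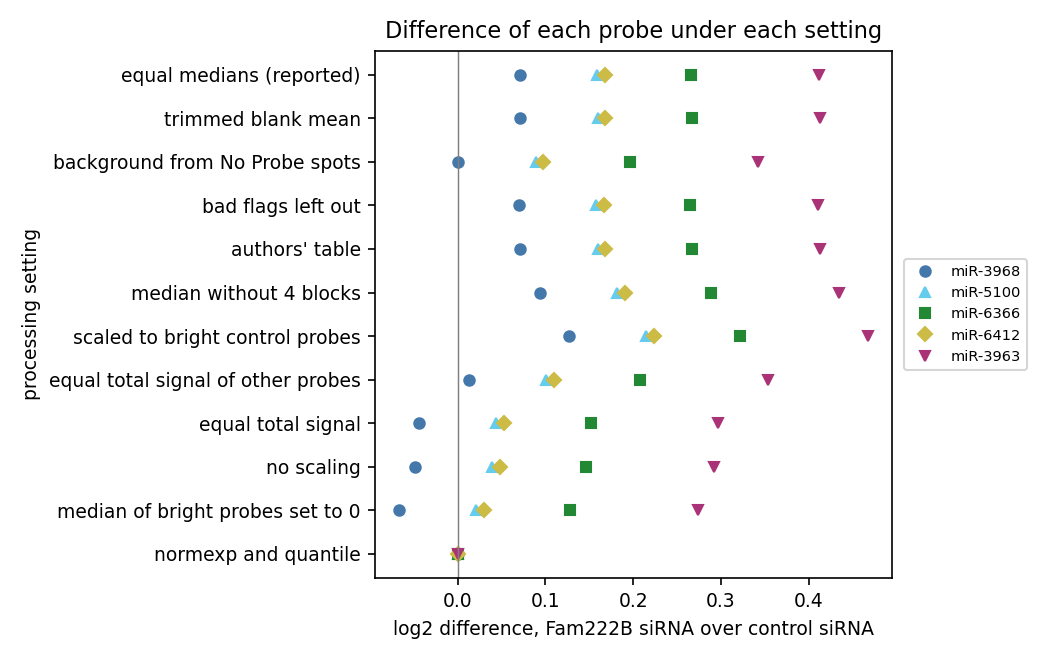
Log2 difference of each of the 5 probes, Fam222B siRNA over control siRNA (horizontal axis), under the reported setting and 11 others (vertical axis), without the setting that subtracts the background column. The order of the probes is the same under all but quantile normalization, where all 5 stand at 0, and miR-3963 is highest, between 0.27 and 0.47 elsewhere.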

How the data were processed

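miRNA was measured on 2 one-colour arrays, 1 per group, grouped by the treatment in the labels. In the deposited scanner files each of 3200 spots has a median intensity, which joins scans at 3 gains (per the file headers) and still contains the background. The software behind them is not given in the sources used here. The authors' deposited table of processed intensity rises in a straight line with the spot median, less 70.2 and 69.8 units and times 3.40 and 3.69 for control-siRNA and Fam222B-siRNA. Its scale is linear, its direction is that of the signal and it is not centred per miRNA. Its medians were 25 over 1220 and 34.6 over 961 listed probes.

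The blank mean was subtracted from each spot and the median log2 difference over probes detected on both arrays was set to 0. Detection used the mean plus 2 SD of the blank spots after 5% were left out at each end. Quantile normalization after normexp (offset 50, limma 3.58.1, R 4.3.3) was an alternative, since it fixes the brightest probes by rank. The calculations used Python 3.11.15, and were tested on simulated data. Sequences are RefSeq's (GRCm38.p6) and were matched by miRNA name for 1614 of 1900 probes (84.9%). Hairpins were folded with ViennaRNA 2.7.2 at default settings, a step added after the data were seen.

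The members, letters searched and lists were chosen with earlier results of these data known. Named miRNAs are the members, ranks 6 to 10, the nearest probes by signal, seed, sequence or position, probes with the searched letters, and reference miRNAs. miR-3547-5p was named after its values were seen. Alternatives were other backgrounds, flags, denominators, scalings, folds and detection limits.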

Additional observations from a re-analysis of the deposited data

How the results depend on the processing

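Of 60 differences of the 5 probes recomputed under 12 other settings, 36 moved by less than 1 spot SD. In the order miR-3968, miR-5100, miR-6366, miR-6412 and miR-3963 the log2 differences were -0.049, 0.040, 0.15, 0.048 and 0.29 with no scaling, -0.044, 0.044, 0.15, 0.053 and 0.30 with equal total signal, and -0.067, 0.021, 0.13, 0.030 and 0.27 with the median of probes of at least 100 net units set to 0. With the files' own background column they were 0.94, -1.06, -1.46, -1.20 and -0.21, and with normexp and quantile normalization they were 0 by that method's construction. The share of the 5 was 62.1% in control-siRNA cells with the background column, 39.7% and 40.4% (control-siRNA and Fam222B-siRNA) with normexp, whose offset of 50 units is added to each probe, and 70.4% and 71.9% without blocks 17, 18, 25 and 26, which removes other signal from the total. Under the other settings it moved by less than the spot SDs of 1.32 and 1.36 points, which treat the 5 shares as independent. The counts past 2-fold, 27 higher and 23 lower, became 73 and 113 with the background column, 0 and 0 with quantile normalization, 8 and 0 with detection at 5 SD, which compares 554 probes, and 65 and 78 at 1.5-fold. The lower count was 13 with the No Probe background; the cause was not tested. No paired analysis was possible because each group has 1 array. With 1 array per group no alternative could leave out a replicate, and culture, labelling and array cannot be told apart from treatment.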
